A study of Mus musculus with 6 samples.

Results

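Transcripts of the recombinase, of terminal deoxynucleotidyl transferase (TdT) and of the surrogate light chain were compared between spleens of Was knockout and wild-type mice. The 6 genes, Rag1, Rag2, Dntt, Igll1, Vpreb1 and Vpreb3, were taken by symbol from the 26452 genes of the deposited table. They were chosen by their values in this same comparison, after early B cell genes had been seen higher in the knockout, so their difference between the genotypes is described here and not tested. All animals were male, 10 weeks old and of the 129S6/SvEvTac background. The knockout mice carry the targeted allele as Was -/- (129S6/SvEvTac-Wastm1Sbs/J), and the wild-type mice carry none. No treatment is named for either group. RNA was isolated from whole spleen, with 3 animals per genotype and 1 library per animal. Libraries are named here by genotype and animal number as KO451, KO452, KO457, WT453, WT454 and WT455. Was encodes the Wiskott-Aldrich syndrome protein, which drives actin assembly in blood cells.

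Developing lymphocytes build their antigen receptor genes by V(D)J recombination. RAG1 and RAG2 together cut the DNA at recombination signals, TdT (encoded by Dntt) adds nucleotides that no template specifies at the broken ends, and general repair factors join them. In a B cell precursor the first product is the immunoglobulin heavy chain. It is tested on the surface with a placeholder for the light chain, the surrogate light chain, made of λ5 (Igll1) and VpreB (Vpreb1 or its close copy Vpreb2), which is lost once a true light chain is made. Vpreb3 encodes a related protein that stays inside the cell and is also made at later B cell stages. In adult mice these steps take place mainly in bone marrow, and the spleen chiefly holds B cells that have completed them. Thymocytes also use RAG1, RAG2 and TdT but not the surrogate light chain.

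The libraries held 30661759 to 38402758 reads assigned to genes, and levels are also given per 1000000 of these reads (CPM). Where a library had 0 reads, up to 3 reads, or 0.0781 to 0.0978 CPM, could have been missed by counting error alone. In the deposited unit, log2(normalized count + 1), Was was 12.02, 12.68 and 12.62 in WT453, WT454 and WT455 and 8.99, 8.67 and 8.68 in KO451, KO452 and KO457. The 3 knockout libraries thus lay below the 3 wild-type libraries, with a difference of -3.66 ± 0.25 (limma SE) and a Benjamini-Hochberg adjusted p = 0.0117 in limma. That call was lost when any 1 library other than WT453 was left out. Across the 22071 genes tested, limma called 2 genes at an adjusted p under 0.05 (0.00906%), Was and 1 predicted gene, both lower in the knockout, while 2420 had an unadjusted p under 0.05. None of the 6 genes was among the 2. In the authors' deposited table, 2.14% of the genes are higher and 1.44% lower in the knockout at an FDR under 0.05. The 3 knockout libraries all lay above the 3 wild-type libraries for 9.54% of tested genes, and all below for 9.94%. WT453 stood apart from WT454 and WT455 by high myeloid progenitor genes and low lymphocyte genes: Mpo, the granule enzyme myeloperoxidase, was 16.23 there on the log2 scale, against 11.16 to 14.25 in the other 5 libraries. KO457 stood apart for the 6 genes themselves. The log2 differences of the 6 genes are therefore given with and without each of these 2 libraries, and those of other genes where leaving out WT453 moved them by a large factor. Each limma p-value compares a group difference with the spread among these 6 animals, which limma adjusts towards a trend over all tested genes.

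The transcription start regions of 4 of the genes are shown first, the recombinase pair and the pair that forms the surrogate light chain, because these include the genes with the largest differences and each pair is a cluster of neighbours in the genome. Each line gives the 250 bases before the RefSeq start site, 5′ to 3′ on the gene's own strand (GRCm38.p6). The windows are chr2:101649533-101649782 on the minus strand for Rag1, chr2:101624462-101624711 on the plus strand for Rag2, chr16:16863986-16864235 on the minus strand for Igll1 and chr16:16869256-16869505 on the minus strand for Vpreb1. Capitals mark matches to motifs of early B cell transcription factors, given next.
Rag1: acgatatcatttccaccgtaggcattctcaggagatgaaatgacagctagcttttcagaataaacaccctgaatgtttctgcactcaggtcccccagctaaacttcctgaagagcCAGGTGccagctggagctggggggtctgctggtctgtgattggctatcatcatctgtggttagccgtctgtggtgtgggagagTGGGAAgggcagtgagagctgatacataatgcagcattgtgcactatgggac
Rag2: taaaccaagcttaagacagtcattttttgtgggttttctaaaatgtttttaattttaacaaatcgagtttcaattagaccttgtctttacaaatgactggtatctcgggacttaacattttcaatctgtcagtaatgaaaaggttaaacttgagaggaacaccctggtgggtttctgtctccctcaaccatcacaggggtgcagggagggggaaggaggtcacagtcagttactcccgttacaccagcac
Igll1: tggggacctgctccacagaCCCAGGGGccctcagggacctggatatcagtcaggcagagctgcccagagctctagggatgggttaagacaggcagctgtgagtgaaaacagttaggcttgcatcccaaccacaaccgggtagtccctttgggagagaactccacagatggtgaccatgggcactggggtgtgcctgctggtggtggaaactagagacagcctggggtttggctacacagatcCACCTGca
Vpreb1: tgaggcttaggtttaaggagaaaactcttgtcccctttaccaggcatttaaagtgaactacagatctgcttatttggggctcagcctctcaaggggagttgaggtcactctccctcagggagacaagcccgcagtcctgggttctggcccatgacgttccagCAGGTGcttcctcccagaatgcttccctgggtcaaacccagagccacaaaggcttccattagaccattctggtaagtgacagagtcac

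Matches were searched on both strands in the 300 bases from 250 before to 50 after the start site, in which all 6 genes had a RefSeq entry. The letters were CAGGTG (the E-box bound by E2A proteins), CCCNNGGG (the core bound by EBF), TGGGAA (the core bound by Ikaros) and TATAAA (the TATA box). The E-box letters stood in 3 of the 6 genes, at -135 in Rag1, -8 in Igll1 (as CACCTG, its reverse complement) and -88 in Vpreb1, with positions counted from the start site to the first base of the match on the gene's strand. They occurred in 20.2% of 32851 mouse promoters of the same length. The EBF letters stood in Igll1 at -231 and in 13.7% of all promoters, and the Ikaros letters in Rag1 at -52 and in 25.6% of all promoters. The windows of Rag2, Dntt and Vpreb3 held none of these letters, and no window of the 6 held the TATA letters, found in 13.6% of promoters. For Vpreb1 and Vpreb3 the RefSeq start site lay 1588 and 5243 bp from the start of the gene in GENCODE. Their windows therefore lie inside the GENCODE gene, and another start site would give other windows. No match overlapped another. The windows of the 6 genes had a median GC content of 50.5%, against 52.7% over all promoters. A match is a run of letters and not a measured binding site.

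All 6 genes had a higher mean in the knockout, and the largest differences were in the recombinase and in λ5. In mean CPM the knockout was 10.7 times the wild type for Rag1, 13.6 times for Rag2 and 11.9 times for Igll1. The ratio was 6.53 for Vpreb1, 1.87 for Dntt and 1.24 for Vpreb3. These ratios include KO457, and ratios without it were not computed. Igll1 was at 12.9 CPM in KO457 but at 1.59 in KO451 and 0.899 in KO452, against a wild-type mean of 0.429. Vpreb1 was at 9.03 CPM in KO457 but at 0.608 in KO451 and 0.84 in KO452, against a wild-type mean of 0.534. The ratios of Igll1 and Vpreb1 thus rest largely on KO457. The median log2 difference of the 6 genes was 2.57, against -0.03 over all tested genes. It was 1.68 without KO457 and 2.37 without WT453. KO457 had the highest value of the 6 libraries for all 6 genes, and WT453 the lowest for 4 of them. All 6 passed the filter on low values. The groups did not overlap for 3 of the 6 genes (Rag1, Rag2 and Vpreb1), and the authors' deposited table calls the same 3 at its FDR threshold of 0.05. These counts stand beside backgrounds of 9.54% and 2.14%, and nothing is read from them since this comparison chose the genes. In a bulk sample, more cells that carry a transcript and more of that transcript per cell cannot be told apart.

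**Figure D1:**
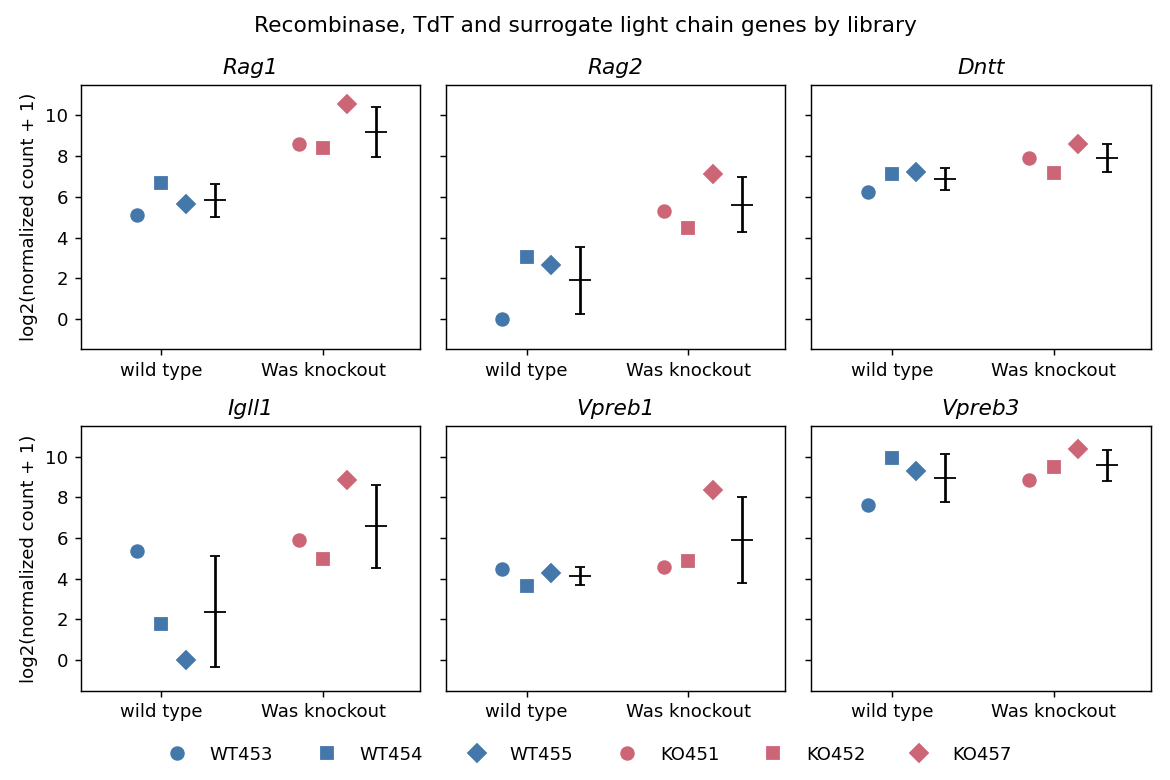
Log2(normalized count + 1) of each of the 6 genes (vertical axis) in the 3 wild-type libraries (blue) and the 3 Was knockout libraries (red), 1 panel per gene, with black bars for the group mean and SD. KO457 is the highest point in all 6 panels, and the groups are well apart for Rag1 and Rag2, touch for Dntt and Vpreb1, and overlap for Igll1 and Vpreb3.

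Rag1 (ENSMUSG00000061311, GRCm38 chromosome 2, 101638282 to 101649501, minus strand) encodes the subunit that binds the recombination signal and cuts DNA. Its log2 value was 5.13, 6.70 and 5.64 in WT453, WT454 and WT455 and 8.60, 8.39 and 10.58 in KO451, KO452 and KO457. The groups were separate, with the lowest knockout library 1.69 above the highest wild-type library, and KO457 lay 1.98 above the next library. In reads this was 33, 126 and 47 in the wild type and 361, 334 and 1475 in the knockout, in the same order. The means were 9.19 ± 1.21 in the knockout and 5.82 ± 0.80 in the wild type (SD, n = 3 each), a difference of 3.37 ± 0.67 (limma SE). Without KO457 it was 2.67, and without WT453 it was 3.02.

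Rag2 (ENSMUSG00000032864, chromosome 2, 101624718 to 101632529, plus strand) encodes the partner that RAG1 needs for cutting and that reads a histone mark of active chromatin. WT453 had 0 reads, which allows up to 0.0931 CPM, WT454 had 9 and WT455 had 5. KO451, KO452 and KO457 had 36, 21 and 131 reads. On the log2 scale these were 0.00, 3.06 and 2.63 in the wild type and 5.31, 4.46 and 7.10 in the knockout. The order of the 6 libraries was the same as for Rag1, from KO457 down through KO451, KO452, WT454 and WT455 to WT453. The gap between the groups was 1.40. The mean was 5.62 ± 1.35 in the knockout and 1.90 ± 1.66 in the wild type (SD, n = 3 each), a difference of 3.72 ± 1.03 (limma SE), or 2.99 without KO457 and 2.78 without WT453. With so few wild-type reads, the size of the Rag2 difference is less precise than that of Rag1.

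Rag1 and Rag2 lie 5753 bp apart and point towards each other. B230118H07Rik runs through both, on the strand of Rag1. It shares 80 bp of exon with Rag1 (1.21% of the exon length of Rag1) and 208 bp with Rag2 (6.07%), where it is antisense. Whether counting used strand is not given in the sources used here, so reads in these stretches cannot be assigned to 1 gene with certainty. The mean log2 value of B230118H07Rik was 7.33 in the knockout and 6.96 in the wild type, a difference of 0.37. The next gene beyond Rag1, Traf6, an adaptor of Toll-like receptor signalling that lies 28928 bp away, had means of 10.50 in the knockout and 10.94 in the wild type. Both differences were smaller in size than those of Rag1 and Rag2.

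Dntt (ENSMUSG00000025014, chromosome 19, 41029275 to 41059525, plus strand) had the second smallest difference of the 6. Its log2 value was 6.23, 7.13 and 7.24 in WT453, WT454 and WT455 and 7.92, 7.19 and 8.57 in KO451, KO452 and KO457. KO452 lay within the wild-type range, 0.05 below WT455, and the other 2 knockout libraries lay above it. Reads were 72, 170 and 145 in the wild type and 225, 145 and 366 in the knockout. The mean was 7.89 ± 0.69 in the knockout and 6.87 ± 0.55 in the wild type (SD, n = 3 each), a difference of 1.03 ± 0.46 (limma SE). It was 0.69 without KO457 and 0.71 without WT453. Blnk, an adaptor of B cell receptor signalling that lies 34740 bp before Dntt, had a difference of -0.36.

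Igll1 (ENSMUSG00000075370, chromosome 16, 16860671 to 16863985, minus strand) had the largest log2 difference of the 6 genes and overlapping groups. Its reads were 39, 3 and 0 in WT453, WT454 and WT455 and 55, 30 and 450 in KO451, KO452 and KO457. The 0 in WT455 allows up to 0.0978 CPM. WT453, the library with high myeloid progenitor genes, was the highest wild-type library here and lay above KO452. On the log2 scale the values were 5.36, 1.79 and 0.00 in the wild type and 5.91, 4.95 and 8.87 in the knockout. KO457 lay 2.97 above the next library. The mean was 6.58 ± 2.04 in the knockout and 2.38 ± 2.73 in the wild type (SD, n = 3 each), a difference of 4.19 ± 1.52 (limma SE). It was 3.05 without KO457 and 5.68 without WT453, and these values lay farther apart than those of any of the other 5 genes.

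Vpreb1 (ENSMUSG00000059305, chromosome 16, 16868403 to 16870843, minus strand), the other chain of the surrogate light chain, differed in the pattern across libraries. Its log2 value was 4.50, 3.63 and 4.30 in WT453, WT454 and WT455 and 4.56, 4.86 and 8.36 in KO451, KO452 and KO457. KO457 alone was high, 3.51 above the next library, while KO451 and KO452 lay just above the wild-type range, KO451 by 0.05. Reads were 21, 14 and 18 in the wild type and 21, 28 and 316 in the knockout. In CPM, which leaves out the authors' size factors, KO451 (0.608) lay below WT453 (0.651), so the separation of the groups rests on the scaling. The mean was 5.93 ± 2.12 in the knockout and 4.15 ± 0.45 in the wild type (SD, n = 3 each), a difference of 1.78 ± 1.01 (limma SE). Without KO457 it was 0.56, and without WT453 it was 1.96.

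**Figure D2:**
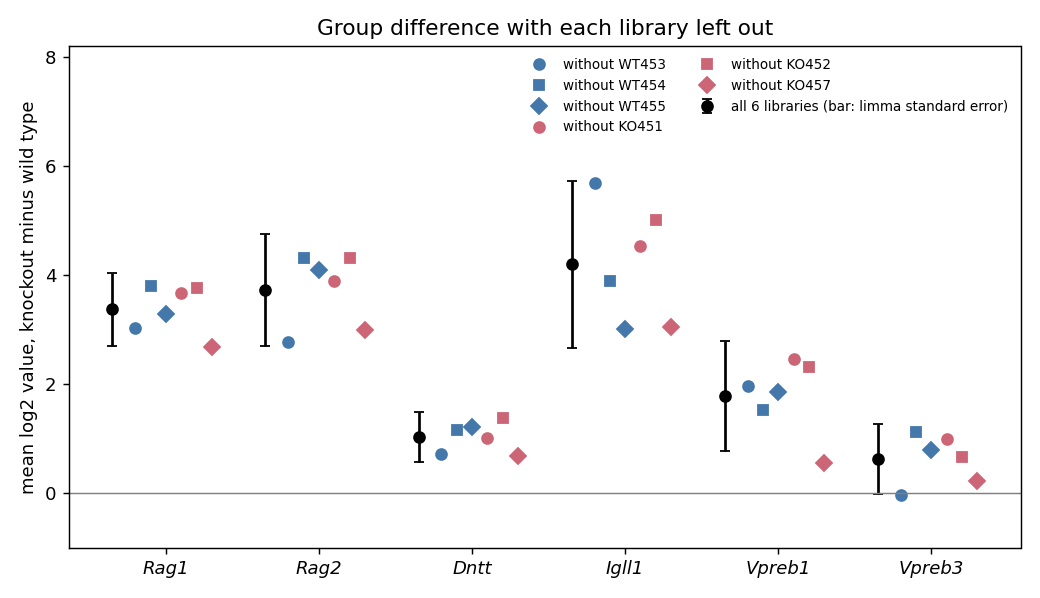
Difference of the mean log2 values, knockout minus wild type (vertical axis), for each of the 6 genes with all 6 libraries (black, with the limma standard error) and with each library left out in turn (coloured points). Leaving out KO457 lowers all 6 differences, for Vpreb1 from 1.78 to 0.56, and leaving out WT453 takes that of Vpreb3 to -0.04.

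Igll1 and Vpreb1 lie on the same strand 4418 bp apart. Vpreb1 overlaps Top3b, a topoisomerase gene on the other strand, over 108 bp of exon (9.01% of its exon length), and Top3b had means of 9.69 in the knockout and 10.18 in the wild type. Vpreb2 (ENSMUSG00000059280, chromosome 16, 17980428 to 17981273, plus strand) is the close copy of Vpreb1. The coding sequences, 426 bases each, were identical at 417 bases (97.9%), and 43.0% of the 50-base stretches of Vpreb1 also occur in Vpreb2. How reads were counted is not given, so reads from such stretches may have been assigned to either gene or to neither. Both values are uncertain for this reason. The stretch where they differ most, coding bases 298 to 387 counted from the first base of the start codon, is shown from the GENCODE M21 transcripts, with the 5 differing bases in capitals.
Vpreb1: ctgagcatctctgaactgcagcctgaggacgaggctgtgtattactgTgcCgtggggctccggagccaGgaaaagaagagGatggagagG
Vpreb2: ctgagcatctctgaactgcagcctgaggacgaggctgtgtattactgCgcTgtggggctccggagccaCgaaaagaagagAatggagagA

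Vpreb2 had 4, 0 and 0 reads in WT453, WT454 and WT455 and 16, 0 and 57 in KO451, KO452 and KO457. KO457 was again the highest library, while KO452, WT454 and WT455 had no read.

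Vpreb3 (ENSMUSG00000000903, chromosome 10, 75943057 to 75949657, plus strand) had the smallest difference and overlapping groups. Its log2 value was 7.62, 9.95 and 9.28 in WT453, WT454 and WT455 and 8.85, 9.52 and 10.37 in KO451, KO452 and KO457. WT454 lay above KO451 and KO452, and WT453 was the lowest library. Reads were 190, 1213 and 599 in the wild type and 428, 731 and 1273 in the knockout. The mean was 9.58 ± 0.76 in the knockout and 8.95 ± 1.20 in the wild type (SD, n = 3 each), a difference of 0.62 ± 0.64 (limma SE). It was 0.23 without KO457 and -0.04 without WT453, so its direction rested on WT453. Gm867, which begins 2385 bp from Vpreb3 on the other strand, had means of 7.99 in the knockout and 5.50 in the wild type.

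Levels can be set between genes only per length, here as normalized counts per kb of annotated exon. Vpreb3 was the most abundant of the 6 in every library, from 228 in WT453 to 1540 in KO457. In WT454 and WT455 it stood at 1152 and 724, against 60.5 and 65.7 for Dntt, 15.6 and 7.39 for Rag1, 9.53 and 15.6 for Vpreb1, 2.14 and 1.52 for Rag2, and 1.13 and 0 for Igll1. Dntt was the second most abundant in all 3 wild-type libraries and in KO451 (105) and KO452 (63.3).

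In KO457 Dntt ranked lower, since Vpreb1 (274), Rag1 (232) and Igll1 (216) all exceeded Dntt (166), and Rag2 was at 39.7. Rag1 made up 13.7%, 20.5% and 10.1% of the sum of Rag1 and Dntt in WT453, WT454 and WT455 and 35.8%, 44.4% and 58.3% in KO451, KO452 and KO457. This share does not depend on the scaling between libraries. The groups did not overlap in it, but both genes were chosen by this comparison and Rag1 alone already separated the groups. How often such shares separate over all genes was not computed, so nothing is read from this. The ratio of Rag1 to Rag2 ranged from 4.87 to 8.24 in the 5 libraries with Rag2 reads, with no separation of the groups. The ratio of Vpreb3 to Vpreb1 was lowest in KO457, at 5.62, and highest in WT454, at 120.9.

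**Figure D3:**
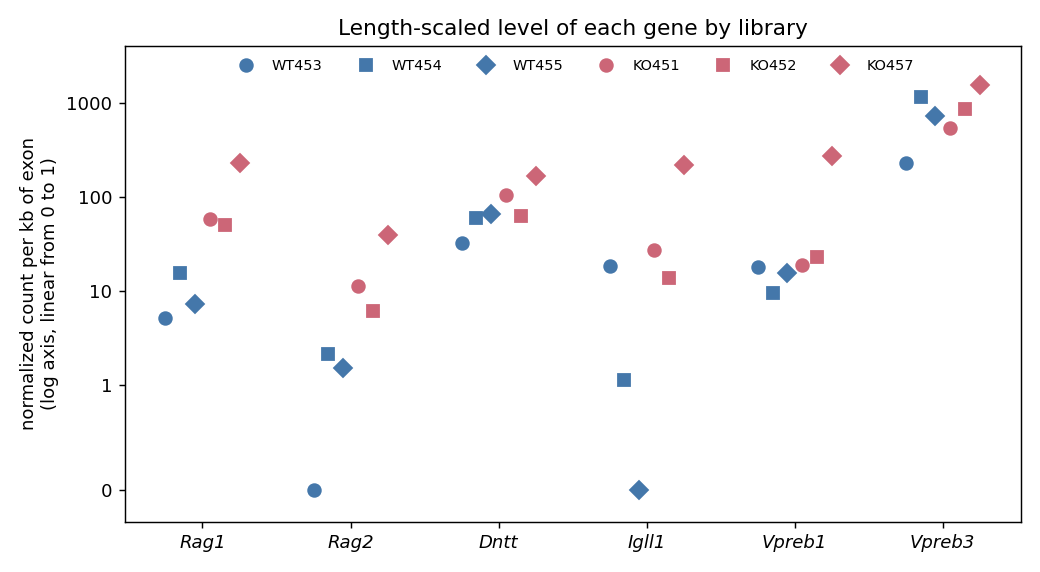
Normalized count per kb of annotated exon (vertical axis, log scale, linear from 0 to 1) of each of the 6 genes in each library, wild type in blue and knockout in red. Vpreb3 is highest in every library, up to 1540, and in KO457 the points of Rag1, Dntt, Igll1 and Vpreb1 lie between 166 and 274.

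Of 13 other genes of V(D)J cutting and joining, 7 had a higher and 6 a lower mean in the knockout, with a median log2 difference of 0.01, against 2.57 for the 6 genes and -0.03 for all tested genes. None passed the limma threshold, and 1 had an unadjusted p under 0.05. Hmgb1 and Hmgb2, chromatin proteins that help RAG bind DNA, were the most abundant, with differences of 0.55 ± 0.25 and 0.89 ± 0.73 (limma SE), the latter 1.73 without WT453. Polm, a polymerase related to TdT that fills the joined ends, had a difference of -0.63 ± 0.29. The groups did not overlap for Xrcc6, the Ku70 end-binding protein (difference 0.52, higher in the knockout), or for Poll (difference -0.41).

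The partners and signalling proteins of the pre-B cell receptor, 14 genes with Vpreb2 among them, had a median difference of -0.33, with 4 higher and 10 lower and none called by limma. Ighm, the μ heavy chain that pairs with the surrogate light chain and also the IgM of mature B and plasma cells, had means of 18.61 ± 0.10 in the knockout and 17.18 ± 0.85 in the wild type (SD, n = 3 each). The groups did not overlap, the difference was 1.43 ± 0.44 (limma SE, 0.94 without WT453), and the limma adjusted p was 0.355. Cd79a, the signalling chain of the receptor, had a difference of -0.53 ± 0.46 (limma SE), or -0.998 without WT453.

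Of 17 transcription factors of early B cell development, 8 had a higher and 9 a lower mean, with a median of -0.26 and 0 unadjusted p under 0.05. Pax5, which commits cells to the B lineage, had a difference of -0.57 (-1.15 without WT453), Lef1, a factor of pro-B cell growth, one of -0.96, and Irf8 one of -0.29 (-0.64 without WT453). Ebf1, which specifies the B lineage, had one of -0.77. Among the factors with a higher mean, Sox4 had a difference of 0.76 (0.33 without WT453), and those of Ikzf1, which encodes Ikaros, and Bach2 went from 0.95 to -0.22 and from 1.13 to -0.77 without WT453.

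Of 15 surface and other markers of pro-B and pre-B cells, 8 were higher and 7 lower in the mean, with a median of 0.08. Cd24a, the heat-stable antigen found on B cell precursors and on red cell precursors, was the 1 gene of this list that the authors' deposited table calls at an FDR threshold of 0.05. It had means of 15.59 ± 0.71 in the knockout and 14.06 ± 0.16 in the wild type (SD, n = 3 each), without overlap, and a limma adjusted p of 0.344. Il7r, the receptor for the growth factor of B cell precursors, had a difference of -0.56 (-1.25 without WT453). Kit, the stem cell factor receptor, had one of 0.08 (0.23 without WT453). Other markers with a higher mean were Enpep (1.48 at few reads, and 2.03 without WT453), Cecr2 (1.11, and 0.92 without WT453) and Akap12 (1.04, and 0.07 without WT453). The groups overlapped for each of them. Spn (-0.24) lay lower in all 3 knockout libraries. A lower mean was also seen for Flt3 (-0.30), Bst1 (-0.28, and 0.38 without WT453), Cd93 (-0.13) and Ly6d (-0.02, and -0.90 without WT453). Mme, the CD10 peptidase, was at 0 reads in the 3 knockout libraries and in WT454, at a log2 value of 2.04 in WT455 and at 7.30 in WT453, so that its contrast rested on WT453. Of 6 niche signals, 2 had a higher and 4 a lower mean, with a median of -0.40. Il7 had a difference of -1.79 at very low reads, Flt3l (-0.67) and Cxcr4 (-0.46) lay lower in all 3 knockout libraries, and Tslp (0.35, and 0.58 without WT453) and Kitl (0.22, and -0.31 without WT453) had a higher mean.

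Over all 14 lists, 128 distinct genes were tested and limma called 0 of them, with 26 at an unadjusted p under 0.05 and a lowest adjusted p of 0.344. The authors' deposited table calls 13 of them as higher and 1 as lower. Of those called higher, 9 were red cell precursor genes, 2 cell cycle genes, 1 a macrophage gene and 1 Cd24a. It calls 0 as higher in the lists of joining factors, pre-B cell receptor partners, early transcription factors and niche signals. The shares of all genes called in these ways were 0.00906%, 2.14% and 1.44%. The medians of 3 of the early B cell lists changed sign with 1 library left out. That of the joining factors went to -0.17 without WT453, and also to -0.05 under quantile normalization. That of the transcription factors went to 0.12 without KO451, and that of the precursor markers to -0.09 without WT454 and -0.06 without WT455. That of the pre-B cell receptor list stayed between -0.45 and -0.18.

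**Figure D4:**
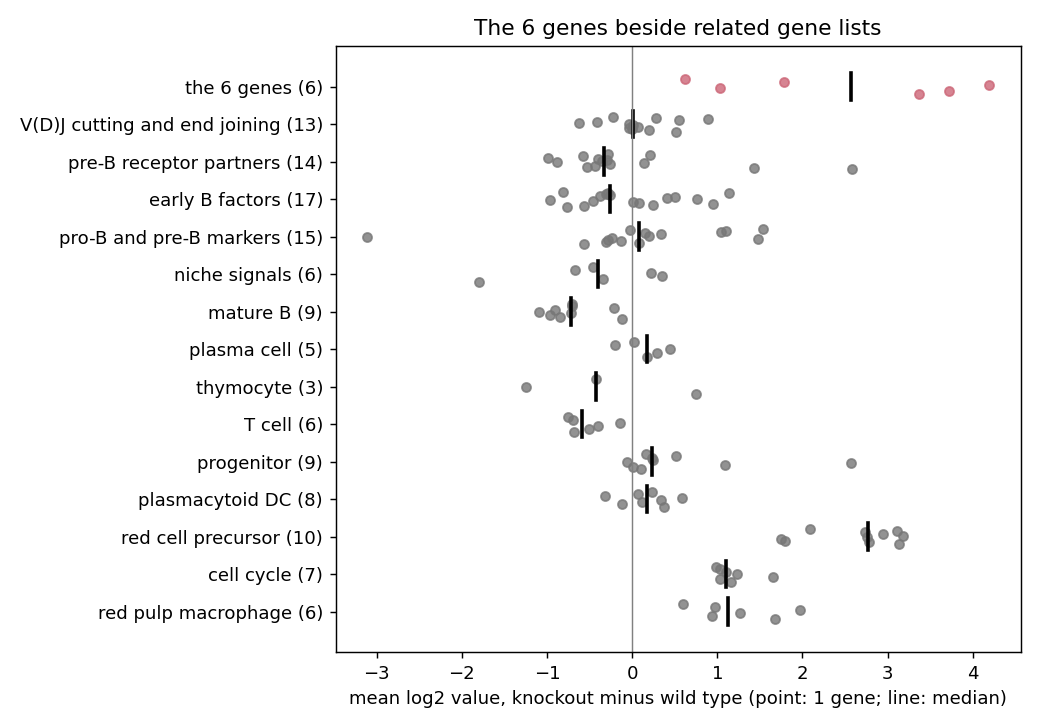
Difference of the mean log2 values, knockout minus wild type (horizontal axis), of each gene (points) in the 14 lists and in the 6 genes (top, red), with a line at each median and the number of genes in parentheses. The 6 genes have a median of 2.57, the 10 red cell precursor genes one of 2.77, and the medians of joining factors, early B factors and precursor markers are 0.01, -0.26 and 0.08.

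Markers of other cell types were measured beside the 6 genes. Mature B cell markers had a lower mean in the knockout for 9 of 9 genes, with a median of -0.72 (-1.20 without WT453) and summed levels of 1064 to 2419 CPM in the knockout and 1246 to 4398 CPM in the wild type. Cd37 (-1.09 ± 0.30, limma SE) was the 1 gene called in the authors' deposited table, and Ms4a1, which encodes CD20, had a difference of -0.12 (-1.12 without WT453). These genes and those of red pulp macrophages (summed at 3638 to 6292 CPM in the knockout and 1042 to 3644 CPM in the wild type), both typical of spleen, were present in every library. Macrophage markers had a higher mean in the knockout for 6 of 6 genes, with a median of 1.12 (0.63 without WT453), and their summed levels overlapped between the groups.

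Relative to the mean log2 value of the 9 mature B genes in the same library, Rag1 lay at -6.55, -6.89 and -7.65 in WT453, WT454 and WT455 and at -3.29, -4.39 and -1.22 in KO451, KO452 and KO457. Vpreb3, whose own values overlapped, lay at -4.06, -3.64 and -4.00 in the wild type and at -3.04, -3.27 and -1.43 in the knockout. On this scale the groups did not overlap for Rag1, Rag2 and Vpreb3, and overlapped for the other 3 genes, where WT453 lay above KO452. The mature B genes were themselves lower in the knockout, with a median of -0.72, which widens any knockout excess on this scale. Their mean was lowest in WT453, at 11.68, which raises WT453 here. The share of all genes without overlap on this scale was not computed, and nothing is read from these separations. WT453 was at -7.18 for Vpreb1, above KO451 at -7.33 and KO452 at -7.92, so that Vpreb1 lost its narrow separation here. It was at -6.31 for Igll1, above KO452 at -7.83, and at -5.45 for Dntt, above KO452 at -5.59.

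Red cell precursor genes were higher in the knockout for 10 of 10 genes, with a median of 2.77 and summed levels of 13553 to 42389 CPM in the knockout and 1487 to 6398 CPM in the wild type. The groups did not overlap for any of the 10. Their summed level was 42389, 13553 and 16659 CPM in KO451, KO452 and KO457. Cell cycle genes had a higher mean in 7 of 7, with a median of 1.10 and summed levels of 1374 to 3651 CPM in the knockout and 659 to 2134 CPM in the wild type. The part of these 2 lists in the values of the 6 genes was not tested.

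Myeloid and stem progenitor genes, 9 in all, were summed at 317 to 1407 CPM in the knockout and 146 to 4687 CPM in the wild type, with WT453 highest and KO457 second. Their median difference was 0.23, and 1.81 without WT453. WT453 was the highest wild-type library for Igll1 and Vpreb1 and the 1 wild-type library with Vpreb2 reads, and was the lowest of the 6 libraries for Rag1, Rag2, Dntt and Vpreb3. The part of these progenitor levels in the result was not tested.

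Thymocytes also express Rag1, Rag2 and Dntt. Of 4 thymocyte genes, Ptcra was not analysed here and the other 3 were summed at 2.58 to 3.76 CPM in the knockout and 2.73 to 4.75 CPM in the wild type, with a median difference of -0.42. T cell markers had a lower mean in 6 of 6 genes, with a median of -0.59 (-0.96 without WT453). Markers of plasmacytoid dendritic cells, some of which also carry Rag and Dntt transcripts, were summed at 181, 244 and 159 CPM in KO451, KO452 and KO457. In the wild type they were summed at 121 to 279 CPM. The part of thymocytes or of plasmacytoid dendritic cells in the values of the 6 genes was not tested. Plasma cell genes had a median difference of 0.18, with 4 of 5 higher in the mean, and Jchain one of 0.18.

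The genes most like the 6 across libraries were taken by Pearson correlation with the mean of their standardized log2 values, among 12830 genes. Over the 6 libraries these were Coro2b (r = 0.994), Epb41l4b (0.993), Gfra1 (0.990), Mea1 (0.988) and Sertad4 (0.977). The mean it was measured against was higher in each knockout library than in each wild-type library and highest in KO457, so this likeness holds both features. Gfra1, a receptor for glial cell line-derived neurotrophic factor, had means of 6.36 ± 1.37 in the knockout and 3.43 ± 0.70 in the wild type (SD, n = 3 each), a difference of 2.93. Mea1, in contrast, differed by 0.16.

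After subtraction of each genotype's mean, the most like were Crocc2 (0.995), Copg2 (0.995), Cab39 (0.990), Lgr5 (0.984) and Mfsd6 (0.982). No gene stood in both sets of 5. Their differences between the genotypes ranged from -0.19 for Mfsd6 to 1.29 for Lgr5. These correlations rest on 6 points chosen as the highest of many genes and are given as descriptions.

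**Figure D5:**
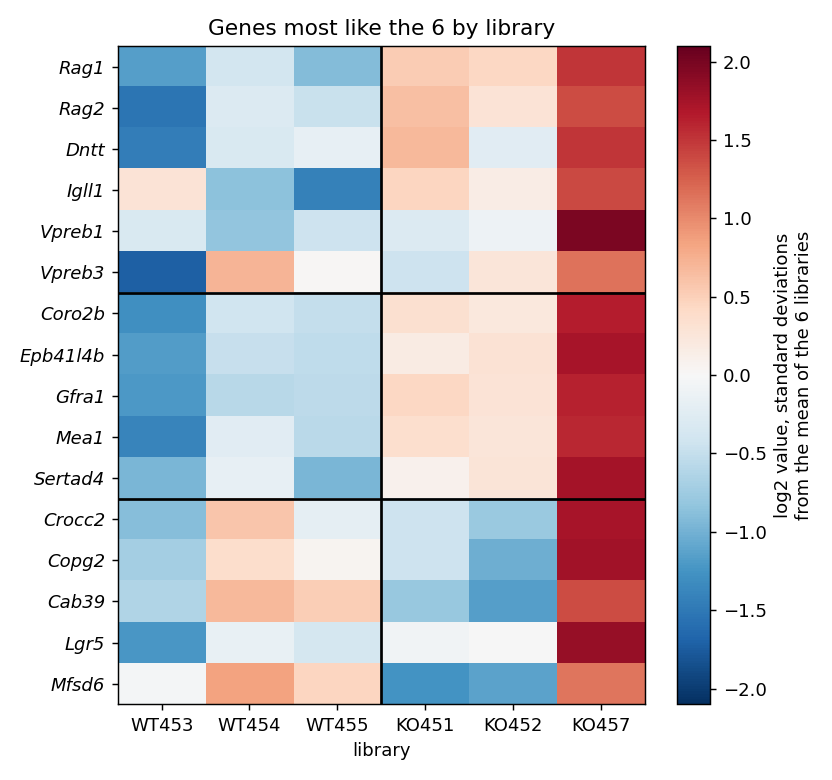
Standardized log2 value (colour, in standard deviations from the mean of the 6 libraries) of the 6 genes (top), the 5 genes most like them over the 6 libraries (middle) and the 5 most like them after subtraction of the genotype means (bottom), in columns by library. KO457 is the darkest red column for most genes, and WT453 is blue for all of the 6 genes except Igll1.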

How the data were processed

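Spleen RNA of 3 Was knockout and 3 wild-type mice was sequenced after an mRNA library preparation, per the labels' protocols. The submitters' processing notes list, with no role, the build GRCm38 and the tools STAR 2.5.3a, DESeq, StringTie 1.3.1c and FastQC 0.11.5. How reads were counted, on which annotation and whether by strand is not given in the sources used here. Per library, the authors deposited log2 values, log2(normalized count + 1), which were read as whole reads divided by a size factor because 100% of values gave whole reads within a tolerance of 0.001. The authors also deposited a p-value and an FDR per gene, whose calculation is not stated. Knockout column names carry an ending absent from the wild-type ones, whose meaning is not stated.

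Limma 3.58.1 in R 4.3.3 was fitted to the deposited log2 values with an intensity trend and 2 groups, without covariates. The 22071 genes with a mean normalized count of at least 1 were tested and 4381 were not, with Benjamini-Hochberg adjustment and a threshold of 0.05. Differences on the log2(value + 1) scale understate those of genes with few reads. CPM came from the recovered reads, which totalled 30661759 to 38402758 per library, and levels per length from GENCODE M21 exons on GRCm38. Promoters came from RefSeq. The fit was tested on simulated data that held no outlying library, so that test does not cover the spread of the 6 genes seen here. The 6 genes and the 14 lists were chosen with earlier results of these data known. Named genes are the 6, Was, Vpreb2, their neighbours, the 2 most abundant and the 2 most different genes of each list, called genes, and the 5 most correlated genes of each kind among genes with a mean normalized count of at least 10. Lists of other cell types are given mostly as counts and sums. Ebf1, Sox4, Ikzf1, Tslp, Kitl, Il7r, Kit, Enpep, Cecr2, Akap12, Flt3, Bst1, Cd93, Ly6d, Xrcc6 and Poll were named after their values were seen. Not every gene named by this rule is reported here. Alternatives were no filter, a minimum of 10, a pseudocount of 0.1, voom on recovered reads, quantile normalization and each library left out.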

Additional observations from a re-analysis of the deposited data

How the results depend on the processing

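The median log2 difference of the 6 genes stayed above 0 under no filter, a minimum mean of 10, a pseudocount of 0.1, voom on recovered reads, quantile normalization and each library left out, with a range of 1.68 to 3.06. The difference of Vpreb3 was positive in 10 of these 11 settings and -0.04 without WT453. Those of the other 5 genes were positive in all 11. All 6 genes passed each filter, so the filter settings could not change their differences, and the median stayed at 2.57 there. The genes were chosen by this same comparison, so these signs are a description and nothing is read from them. The count of called genes among all tested genes was 2, was 1 by voom, and ranged from 0 to 2 when 1 library was left out. Of these, 2 remained the count without WT453, and it was 0 without each of the other 5 libraries. Among the listed genes it was 0 in every setting run. Without WT453 the median of thymocyte genes became 0.09, that of plasmacytoid dendritic cell genes -0.31 and that of plasma cell genes -0.04. The plasmacytoid median was also -0.11 without KO451, and the plasma cell median -0.01 under quantile normalization. That of progenitor genes became -0.42 without WT454, -0.07 without WT455 and -0.22 without KO457. No paired analysis was possible because the groups share no animal numbers. Depth limits Rag2, Igll1, Vpreb1 and Vpreb2, with 0 to 39 reads in wild-type libraries. With 3 animals per group, an exact permutation test of a single value could not give a two-sided p below 0.1, and none is reported.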
